A study of Caenorhabditis elegans with 4 samples.

Results

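The sites of NHR-76 described here are the peaks on Caenorhabditis elegans chromosome IV, chosen by the chromosome that each line of the authors' combined peak list names. There were 598 of them among 3635 combined peaks, or 16.5% (95% Wilson interval 15.3 to 17.7). The peak list of ChIP replicate 1 held 256 peaks on IV among 1562, and that of ChIP replicate 2 held 599 among 3676. The worms were L4 hermaphrodites of strain OP203, grown at 20 °C and crosslinked with 2% formaldehyde. The strain carries the mutation unc-119(ed3) and the array wgIs203, which holds nhr-76 tagged with TY1, EGFP and FLAG beside an unc-119 rescue, was introduced by bombardment and was outcrossed 3 times. All 4 samples share this genotype and stage: 2 ChIP samples, in which chromatin was precipitated with an antibody against GFP, and 2 input samples of unprecipitated DNA. Samples were assigned by their titles and source names, since the free-text descriptions go against these: the antibody is described on the samples titled as input, and the samples titled as ChIP are described as input DNA. The array is additional to the worm's own nhr-76 gene, and the submitters state that the fusion follows the normal expression pattern of nhr-76. The material was whole animals, so a peak does not say in which tissue the protein was bound. There was no sample without the tag, and input reads were not analysed here.

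Nuclear hormone receptors are transcription factors that bind DNA through a pair of zinc fingers and respond, where a ligand is known, to small lipophilic molecules through a separate domain. C. elegans has a greatly enlarged set of them, most of which descend from a relative of the mammalian receptor HNF4. NHR-76 is known as an intestinal factor that links neural serotonin signalling to fat loss through the lipase gene atgl-1. In ChIP-seq, stretches where precipitated fragments pile up above a control are reported as peaks. Each peak here carries a q-value from the caller PeakSeq, and a smaller q-value marks stronger evidence of an excess of reads in that library. The q-value is not the size of the excess. Below, a stronger peak means one with a smaller q-value. Coordinates are those of genome build WS180. No genome or annotation of that build was used here, so the peaks are given by position and are not assigned to genes.

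The combined list was close to a copy of the replicate 2 list. On IV, 461 of 598 combined peaks (77.1%) had the start, end and q-value of a replicate 2 peak, beside 72.1% over all chromosomes, and 0 of 598 were identical to a replicate 1 peak. Agreement between the combined and the replicate 2 list is therefore not a comparison of replicates. The comparison of replicates below is that of the replicate 1 with the replicate 2 list, each a single list with no error of its own. Whether the replicates were separate cultures is not stated in the labels, and the lists hold no read counts, so the depth of the libraries is unknown.

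The strongest site on IV lay in the left part of the chromosome at 2601932 to 2603081, 1150 bp wide. It ranked first on IV in each of the 3 lists. Its q-value was 7.66e-33 in the replicate 1 list and 1.66e-56 in that of replicate 2. A second peak started 661 bp beyond its end. Over the whole combined list this site ranked 23, so that the strongest sites of the genome were on other chromosomes. IV held 11 of the 100 strongest combined peaks.

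The next sites in the combined order were also found in both replicates. The second was a peak of 10550 bp at 621845 to 632394, described further on. The third, at 654703 to 655112, was only 410 bp wide, and its q-values were 2.32e-25 and 2.91e-40 in replicates 1 and 2. Its edges were almost the same in both replicates, with starts 654704 and 654703 and ends 655099 and 655112. The fourth, at 11955188 to 11956773, had q-values of 1.25e-21 and 6.32e-37. The fifth lay at 8527398 to 8528705, with q-values of 1.29e-19 and 8.90e-35 in replicates 1 and 2. Replicate 1 covered 93.8% of the fourth site and 51.4% of the fifth.

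The sixth site, at 4749694 to 4750362, stood second on IV in replicate 1, with a q-value of 1.06e-26, and sixth in replicate 2, with 1.38e-34. Its replicate 1 peak was 324 bp wide and its replicate 2 peak 669 bp. The seventh, at 14594033 to 14594732, had q-values of 1.01e-18 and 2.11e-33 and ranked 7 on IV in both replicates. The eighth, at 10935025 to 10937389, was the one of the 10 on which the replicates differed most in order. It ranked 29 on IV in replicate 1, with a q-value of 5.61e-11, and 8 in replicate 2, with 1.10e-30. The ninth lay at 17278181 to 17278944, near the right end of the peak-bearing span, with q-values of 1.74e-18 and 1.57e-27. The last of the 10 lay at 9564459 to 9565432, with q-values of 3.15e-15 and 1.00e-27. Each of these 10 sites was met by a single peak in each replicate.

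Nearly all replicate 1 peaks on IV recurred in replicate 2. Of the 256, 245 overlapped a replicate 2 peak by at least 1 bp, or 95.7% (95% Wilson interval 92.5 to 97.6), beside 96.5% over all chromosomes. Of the 599 replicate 2 peaks, 245 overlapped replicate 1, or 40.9% (37.0 to 44.9), beside 40.0% over all chromosomes. Of the 598 combined peaks, 244 overlapped replicate 1, or 40.8% (36.9 to 44.8), beside 40.4% over all chromosomes. The replicate 2 and combined shares depend on list length: with each list cut to its 1562 strongest peaks over all chromosomes, they were 81.6% and 81.1% on IV, and the replicate 1 share was 78.1%. With the full lists, the shares on IV are close to those of all chromosomes pooled, although the combined share on I was only 28.6%. The intervals cover counting error only, and neighbouring peaks are not independent.

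Whether a replicate 2 peak recurred depended on its strength. When the 599 peaks were ordered by q-value and cut into deciles, 59 of the 60 strongest overlapped replicate 1 (98.3%, 95% Wilson interval 91.1 to 99.7). The share was 61.7% (49.0 to 72.9) in the fourth decile and 31.7% (21.3 to 44.2) in the fifth, where q-values ran from 9.71e-07 to 5.39e-06. In the weakest decile 2 of 59 peaks did so (3.39%, 0.935 to 11.5). Support fell off most steeply between the second and the seventh decile. Width fell with strength too, from a median of 746.5 bp in the strongest decile to 161 bp in the weakest.

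In replicate 1 the order was different. All 26 peaks in each of the strongest 5 deciles overlapped replicate 2. The lowest share was in the ninth decile, with 18 of 25 peaks (72.0%, 52.4 to 85.7), while all 25 peaks of the weakest decile overlapped. The ninth decile held 6 peaks under 50 bp and had a median width of 161 bp. The weakest decile held none under 50 bp (0 of 25) and had a median width of 269 bp.

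**Figure D1:**
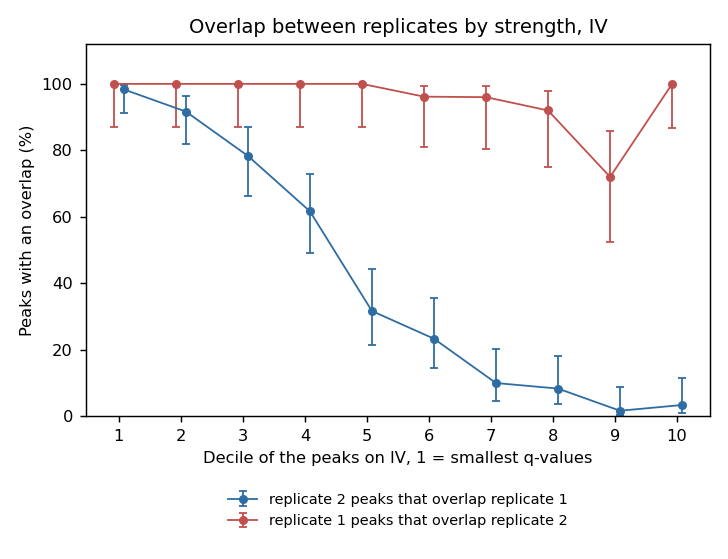
Share of peaks on chromosome IV (%) that overlap a peak of the other replicate by at least 1 bp, by decile of the q-value order within each list, where decile 1 has the smallest q-values; bars are 95% Wilson intervals. The replicate 2 points fall from 98.3% to 3.39%, while the replicate 1 points stay between 72.0% and 100%.

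Sites held by both replicates were ordered alike. Across the 245 replicate 1 peaks with a counterpart, the q-values had a Spearman's rho of 0.79, a description across peaks that share 2 libraries. Of the 10 strongest replicate 1 peaks on IV, 8 were among the 10 strongest of replicate 2, and 40 of the strongest 50 were among its strongest 50. In 242 cases 1 peak met exactly 1 peak. The centres of these pairs lay a median of 22.25 bp apart, and 203 of the 242 lay within 100 bp.

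The same sites mostly had smaller q-values and wider peaks in replicate 2. Its q-value was the smaller in 236 of 242 pairs (97.5%) and the larger in 6. The median log10 q-value was -5.18 in replicate 1 and -8.66 in replicate 2, and the median difference within a pair was 3.40 log10 units (quartiles 1.71 and 5.52). The replicate 2 peak was wider in 220 pairs (90.9%), with median widths of 322 bp in replicate 1 and 416.5 bp in replicate 2. Depth, which can move both measures, is unknown for either library.

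The pairs at the ends of this range were far apart in size. The largest ratio of q-values was that of the strongest site, 23.7 log10 units, although it ranked first on IV in both replicates. The 10550 bp peak followed, with 22.6 units and ranks on IV of 4 in replicate 1 and 2 in replicate 2. Next came the site at 10935025, with 19.7 units, whose peak was 1161 bp wide in replicate 1 and 2384 bp in replicate 2. At the other end, the peak at 2773438 to 2773715 in replicate 1 had q-values of 4.55e-06 there and 2.77e-05 in replicate 2. That at 9513143 to 9513477 had 9.34e-05 and 0.000364, and that at 16004717 to 16004890 had 1.25e-05 and 2.54e-05. These 3 largest reversals were thus at weak peaks, and the first of them measured 0.784 log10 units.

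**Figure D2:**
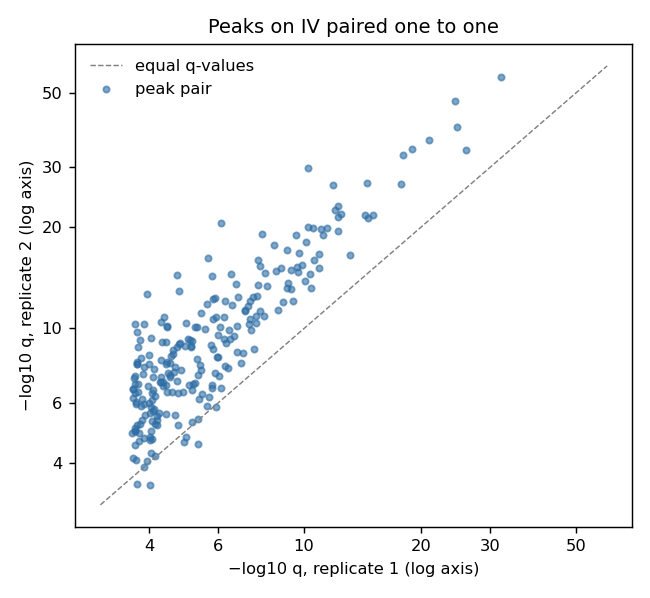
Strength of the 242 peak pairs on chromosome IV that met one to one, as −log10 of the q-value in replicate 1 and in replicate 2, both on log axes; each point is a pair and the dashed line marks equal q-values. All but 6 points lie above the line.

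Peaks found in 1 replicate alone were narrower than shared ones. The 354 replicate 2 peaks without a replicate 1 counterpart were 217 bp wide at the median, and the other 245 were 418 bp. The strongest of them among combined peaks lay at 4415043 to 4415961, with a q-value of 6.87e-15 and a rank of 49 on IV. It was 919 bp wide, inside the window of 100 kb with the most peaks on IV. The next lay at 13919183 to 13919604 (q-value 6.07e-12) and at 11482291 to 11482800 (q-value 1.34e-10). Those at 4728002 to 4728130 and 12109676 to 12110423 had q-values of 4.11e-10 and 5.99e-10. All 5 were identical in the combined and the replicate 2 list.

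Only 11 replicate 1 peaks on IV had no replicate 2 counterpart, and none of them was in the combined list (0 of 11). Because the combined list was close to a copy of the replicate 2 list, that 0 says little about these peaks. The 11 were 68 bp wide at the median, where the other 245 were 322 bp, and 4 of them were under 50 bp. The strongest was at 8763392 to 8763541, with a q-value of 1.25e-05 and a rank of 136 on IV. Next came 15751100 to 15751201 (5.19e-05) and the 8 bp peak at 15899751 to 15899758 (7.83e-05), which lay 187 bp from a replicate 2 peak. Within 1000 bp of a replicate 2 peak lay 2 of the 11. Of the 11, 4 lay between 15000001 and 16000000. That stretch also had the lowest median width of combined peaks of any 1 Mb stretch of IV, 178.5 bp, and 6 of its 24 combined peaks were under 50 bp.

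The combined list added little beyond replicate 2. Of its 598 peaks on IV, 244 met a peak in both replicates, 345 in replicate 2 only, 0 in replicate 1 only and 9 in neither, so that 98.5% overlapped replicate 2, beside 98.6% over all chromosomes. The 9 were weak, with a median q-value of 0.000253 and widths from 5 to 288 bp. The strongest of them lay at 3807338 to 3807358, 3032640 to 3032775 and 3116383 to 3116483, with q-values of 3.08e-06, 1.66e-05 and 1.92e-05. In all, 5 of the 9 lay between 3000001 and 4000000. Over their full widths, combined peaks that met both replicates covered 155.1 kb and those that met replicate 2 alone 82.0 kb. The 155.1 kb is not all shared sequence, since the whole replicate 1 list covered 106.5 kb on IV.

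Peaks were identical to replicate 2, or not, by stretch of the chromosome. Of 18 stretches of 1 Mb along IV, 13 held identical peaks alone. The other 5 held 139 peaks, of which 2 were identical. Among peaks of these stretches that paired with 1 replicate 2 peak, the widths moved in 1 direction within a stretch. Between 3000001 and 4000000 all 18 were narrower in replicate 2, by a median of 6.5 bp. Between 10000001 and 11000000 all 36 were wider in replicate 2, by a median of 11 bp, and between 7000001 and 8000000, 37 of 39 were wider and 0 narrower. The remaining stretches, at 15000001 to 16000000 and beyond 17000001, had 21 of 21 and 12 of 12 wider peaks in replicate 2. How the combined list was made is not given in the sources used here, and a cause was not tested.

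Most peaks on IV were narrow. The median was 291 bp in the combined list, with quartiles of 181.25 and 440.5 bp, and 315.5 bp in replicate 1. Stronger peaks were wider, with a Spearman's rho between width and −log10 q of 0.64 in the combined list and 0.61 in replicate 1. Both measures come from the same reads. At the narrow end, 60 combined peaks (10.0%) were under 50 bp, some of only 1 bp, and 2 of these 60 overlapped replicate 1. At the wide end, 40 combined peaks (6.69%) measured 800 bp or more, and 38 of these 40 were held by both replicates. Of all combined peaks, 40.8% on IV and 40.4% over all chromosomes overlapped replicate 1. Since stronger peaks were wider, these counts are not separate from the fall in overlap with strength. They were not set beside the same width classes on other chromosomes.

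After the 2 widest peaks, both in the region described next, the widest was the site at 10935025, of 2365 bp. The fourth, at 11593314 to 11595335, was 2022 bp wide in the combined list and 1612 bp in replicate 1. The fifth, at 14032814 to 14034554, was 1741 bp in the combined list and 1606 bp in replicate 1. Replicate 1 covered 79.7% of the fourth and 92.2% of the fifth. Their q-values in replicate 1 were 6.46e-13 and 2.57e-11.

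The broad region between 621845 and 652335 was made up differently in the 2 replicates. Its first peak, of 10550 bp, was matched in replicate 1 by a peak of 9480 bp that covered 89.9% of it. Its second peak, of 18986 bp, was matched by a peak of 2748 bp at 633326 to 636073, which covered 14.3% of it. The replicate 1 list held no peak in the last 16262 bp of the region. In both replicates the first peak was much the stronger, with q-values of 3.56e-25 and 6.57e-12 for the first and second in replicate 1 and 8.54e-48 and 1.16e-19 in replicate 2. The narrow third-ranked site of IV began 2367 bp beyond the region and, unlike the region, was alike in width in both replicates. The 2 broad peaks made up 12.4% of the sequence covered by combined peaks on IV and 11.5% of that covered in replicate 1. Without them the combined peaks on IV covered 208.9 kb, with a median width of 290.5 bp.

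**Figure D3:**
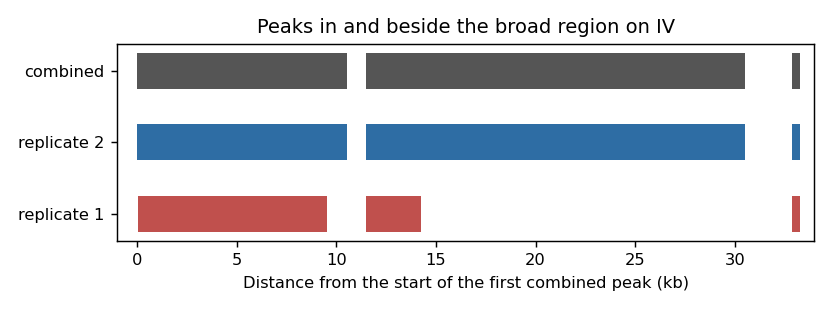
Peaks in and beside the broad region of chromosome IV in the combined, replicate 2 and replicate 1 lists, as bars along the distance in kb from the start of the first combined peak. The combined and replicate 2 bars are the same, while the second replicate 1 bar is 2748 bp wide where that of replicate 2 is 18986 bp; the narrow bar at the right is the third-ranked site of IV.

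The RefSeq gene table at hand, of assembly WBcel235, lists nhr-76 itself on chromosome IV. Its nearest protein-coding neighbours in that table are C18H7.1 and inx-18, an innexin gene whose family forms gap junctions, on one side and K11H12.9 and K11H12.1 on the other. The position of nhr-76 relative to the broad region was not determined, because the table and the peaks are in different builds. The array wgIs203 brings further copies of nhr-76 sequence into every sample, and its part in any peak was not tested.

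Along IV, peaks were densest in the centre and sparser on the right than on the left. The span between the outermost peaks, 192148 to 17474397, was cut into 3 segments of 5.76 Mb. The left segment held 204 combined peaks, the central 242 and the right 152, which is 35.4, 42.0 and 26.4 peaks per Mb. In replicate 1 the numbers were 85, 105 and 66, or 14.8, 18.2 and 11.5 peaks per Mb, in the same order. The right segment also had the narrowest combined peaks, whose medians were 245 bp there, 302 bp on the left and 299 bp in the centre. In replicate 1 that difference was smaller, with medians of 324, 313 and 305.5 bp from left to right. With a q-value under 1e-10 there were 36 combined peaks on the left, 31 in the centre and 29 on the right. The replicate 1 list had 12, 11 and 9, and neither split was tested against the overall numbers. The share of combined peaks that overlapped replicate 1 was 41.7% (35.1 to 48.5) on the left, 40.5% (34.5 to 46.8) in the centre and 40.1% (32.7 to 48.1) on the right, with wide overlap of the intervals.

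In the combined list, close neighbours were fewest where peaks were densest. In the central segment 38 of 242 combined peaks (15.7%, 95% Wilson interval 11.7 to 20.8) had another peak within 1000 bp. On the left it was 58 of 204 (28.4%, 22.7 to 35.0) and on the right 42 of 152 (27.6%, 21.1 to 35.2). The central segments of the other autosomes had between 23.4% on V and 34.2% on III. In replicate 1 the left share was 23.5% (15.8 to 33.6), the central 14.3% (8.85 to 22.2) and the right 13.6% (7.34 to 23.9), so the high share on the right was not seen in that list. The central segments of the other autosomes had between 17.8% on III and 29.5% on II in replicate 1. This contrast was noticed in the data and was not tested.

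**Figure D4:**
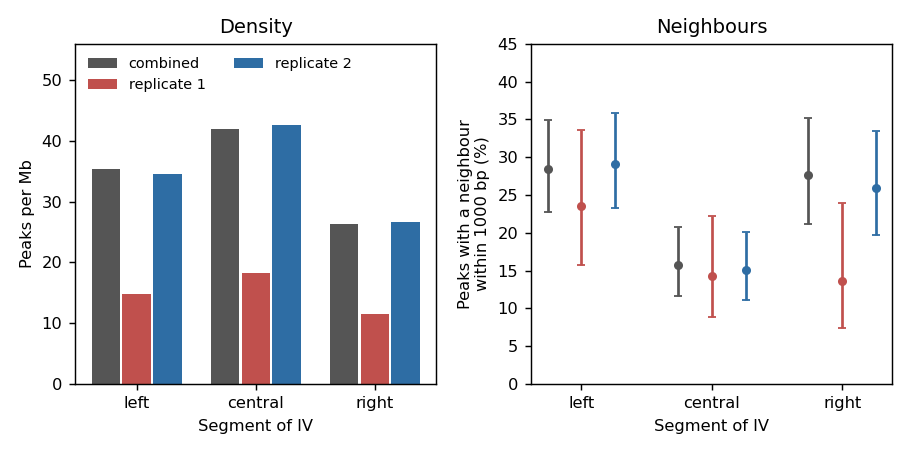
Peaks per Mb (left panel, bars from 0) and share of peaks with a neighbour within 1000 bp (right panel, %, with 95% Wilson intervals) in the left, central and right segment of chromosome IV, for the combined, replicate 1 and replicate 2 lists. The central segment has the most peaks per Mb in each list, and in the combined list the lowest share with a close neighbour, 15.7%.

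At a finer scale, the 1 Mb stretches held between 12 and 53 combined peaks, with the highest number between 9000001 and 10000000 and the lowest in the last, which is cut by the end of the span. The same stretch held the most replicate 1 peaks, 25. Among windows of 100 kb, the fullest was 4400001 to 4500000, with 13 combined peaks covering 7336 bp, of which 7 overlapped replicate 1. It was followed by 9500001 to 9600000 and 4000001 to 4100000, with 11 combined peaks each, of which 7 and 6 overlapped replicate 1. In contrast, 24 of 174 such windows held no combined peak. The longest stretches without one followed the peaks at 13395198, 4834993 and 15071591 and measured 249.9, 248.0 and 241.2 kb.

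Peaks linked by gaps of at most 1000 bp formed 58 groups on IV in the combined list, of which 45 were pairs, 7 had 3 peaks and 6 had 4 or 5. Replicate 1 had 21 such groups, 19 of them pairs. The smallest gap between combined peaks on IV was 200 bp, which was also the smallest on any chromosome, and in replicate 1 no gap was below 202 bp. The group with the strongest peak among those of 5 lay between 8525940 and 8531629. It held the fifth-ranked site and the peak at 8530036 to 8531078, which ranked 11 on IV, and these 2 were the ones found in replicate 1. A second group of 5, between 13388626 and 13393933, had 4 peaks supported by replicate 1. Its outer peaks, of 881 and 786 bp, ranked 17 and 22 on IV, and the 3 between them were 248, 188 and 291 bp wide. The third, between 13250282 and 13254137, had 1 supported peak of 5.

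Set beside the other chromosomes, IV showed no difference that passed the test in the 4 shares compared. The first was the share of combined peaks overlapping replicate 1, 40.8% on IV and 40.3% elsewhere, a difference of 0.467 percentage points (95% interval -3.78 to 4.81; two-sided exact test of Fisher, adjusted p = 0.855). The other chromosomes pooled there ranged from 28.6% on I to 44.1% on V, and IV ranked 5 of 6. The share in the central segment was 40.5% on IV and 41.2% on the other autosomes, a difference of -0.694 points (-5.02 to 3.73; adjusted p = 0.855, same exact test). The share with a neighbour within 1000 bp was 23.1% on IV and 24.3% elsewhere, a difference of -1.19 points (-4.75 to 2.65; adjusted p = 0.855, same exact test), and it was 24.1% over all chromosomes. The share of width 800 bp or more was 6.69% on IV and 7.70% elsewhere, a difference of -1.02 points (-3.02 to 1.44; adjusted p = 0.855, same exact test). The unadjusted p-values of these exact tests lay between 0.446 and 0.855. These intervals allow differences of a few points either way, and they are too narrow because neighbouring peaks were treated as independent.

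Most other features placed IV within or near the range of the other chromosomes, and none of these was tested. The widest peak was an exception. It measured 18986 bp on IV in the combined list, where the widest peaks elsewhere ran from 2613 bp on X to 5722 bp on V. The 10550 bp peak on IV also exceeded these. In replicate 1 the widest peak was 9480 bp on IV and at most 3363 bp elsewhere, on II. The density on IV, 34.6 combined peaks per Mb, was the fourth of 6, between 31.0 on X and 52.9 on III. The 16.5% of peaks on IV stood on 17.4% of the span. Its share of peaks under 50 bp, 10.0%, was the highest, with III next at 9.66%, and in replicate 1 it was also the highest, at 3.52% beside 2.99% on I. In replicate 2 it was the second, at 9.35% beside 9.71% on III. Its median log10 q-value of -5.30 was the weakest of the 6 in the combined list, with I next at -5.34. In replicate 2 the median on IV was also the weakest, at -5.27, with V next at -5.34. In replicate 1 the median on IV, -5.11, was not the weakest, since that on I was -4.83. In replicate 1 IV had the lowest median width, 315.5 bp, with II next at 316.5 bp. There it also had the lowest share of peaks of 800 bp or more, 6.64%, with III next at 6.69%.

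**Figure D5:**
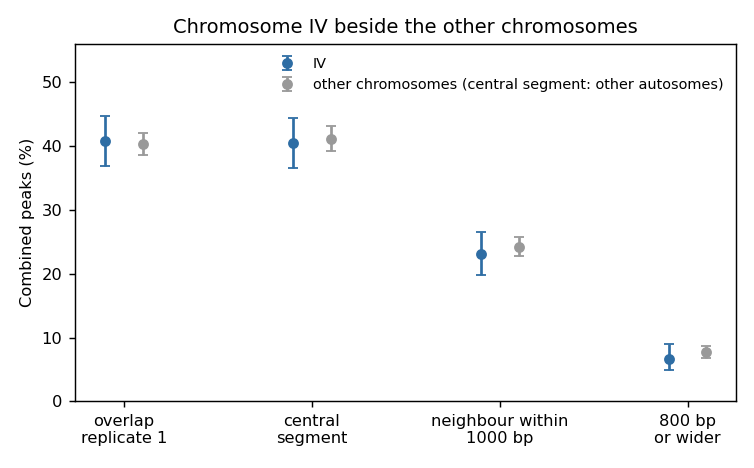
Share of combined peaks (%) on chromosome IV and on the other chromosomes that overlap replicate 1, lie in the central segment (other autosomes only), have a neighbour within 1000 bp or are 800 bp or wider; bars are 95% Wilson intervals. The intervals of IV include the value of the other chromosomes in all 4 comparisons.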

How the data were processed

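Peak lists of 2 ChIP replicates and a combined list were analysed. Samples were grouped by title, and the 2 inputs had no list here. Per the file headers the build is WormBase WS180, and the lines themselves name PeakSeq as the peak caller. The deposited score is the q-value of each peak, used as the authors gave it, to describe and rank peaks within a list. It was also compared between the replicates for paired peaks, where unknown library depth can move it. The sources used here do not give the aligner, the caller's version, the cut-off, how inputs entered, or how the combined list was made. Without read counts, no depth per sample could be reported.

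Peaks overlapped if they shared at least 1 bp. Deciles and ranks follow q-value, then chromosome and start. Shares have 95% Wilson intervals. For 4 shares, IV was compared with the rest by Fisher's exact test (two-sided), with Benjamini-Hochberg adjustment over the 4 and Newcombe intervals of the difference. Other results are descriptions. Each chromosome was taken as the span between the outermost peaks of any list. The peaks named were the 10 strongest on IV held by both replicates and, likewise by rank, the first few unsupported, widest and most unlike peaks, gaps and windows. The groups of 5 linked peaks and the 1 Mb stretches singled out were named after their values were seen. The members and the quantities were chosen with earlier results of these data known. Overlap counting and the exact test were tested on simulated data. Alternatives were reciprocal overlap (50%), centre distance (100 bp), only the better 50% of every list, lists cut to equal length, removal of peaks under 50 bp, single replicate lists, and combined peaks held by both replicates. Genes and sequences were not analysed, for want of a WS180 genome. Versions were Python 3.11.15, scipy 1.17.1, numpy 2.4.6, matplotlib 3.10.9 and pandas 2.3.3.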

Additional observations from a re-analysis of the deposited data

How the results depend on the processing

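The overlap shares on IV depended on the rule and on list length. With a 50% reciprocal overlap, 79.7% of replicate 1 peaks met replicate 2, and replicate 1 met 34.1% of replicate 2 peaks and 34.1% of combined peaks. With centres within 100 bp these were 79.3%, 33.9% and 33.9%. Lists cut to equal length gave 78.1%, 81.6% and 81.1%, and the better 50% of every list gave 98.4% for replicate 1 peaks. Spearman's rho was 0.80 where 1 peak met 1 peak, and 0.82 for the stronger 50% of replicate 1. The density on IV ran from 14.8 peaks per Mb (replicate 1 list) to 34.7 (replicate 2 list), and was 14.1 for combined peaks held by both replicates, which are fewer by construction. Other causes were not tested. The 4 differences between IV and the rest missed the threshold in all 19 alternatives run (adjusted p 0.753 to 1, Fisher's exact test), and their sign changed in 4 of the 19. Overlap between replicates has no value without either replicate. No paired analysis was possible because the input samples have no peak list here. Unknown depth limits any reading of list length, width and q-value.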
